A study of Mus musculus with 34 samples.

Results

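The 10 glycolytic enzyme genes described here are Hk2, Gpi1, Pfkl, Pfkp, Aldoa, Tpi1, Pgk1, Pgam1, Eno1 and Pkm, taken by name from a table of 48709 genes. All 10 were detected in every library and passed the low-count filter that left 17616 genes for testing. The study followed the molecular response of mouse pancreatic islets to partial loss of beta cells, by RNA sequencing of 34 libraries, of which 33 fall into 9 labelled groups. All mice, controls included, were heterozygous for RIP-DTR, a transgene that puts the diphtheria toxin (DT) receptor under the rat insulin promoter, so that DT ablates beta cells. The early groups were DT at 30 days post ablation (DT 30 DPA, 4 libraries), DT at 5 days post ablation (DT 5 DPA, 4 libraries) and CTRL (3 libraries, with no time or diet in the labels). At 10 weeks post ablation, islets came from mice given streptozotocin (STZ, a beta cell toxin, at 75 mg/kg), DT or neither, on a high-fat diet (HFD) or a standard diet (SD). These groups were STZ HFD (4 libraries), DT HFD (3), CTRL HFD (4), STZ SD (4), DT SD (4) and CTRL SD (3). Library totals ran from 11083117 to 18918348 counts. No label says that libraries of a group came from separate animals, so the p-values measure the spread between these samples, which may be technical.

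Glycolysis converts glucose to pyruvate in the cytosol, with control at the hexokinase, phosphofructokinase and pyruvate kinase steps. Adult beta cells are known for keeping high-affinity hexokinases and lactate dehydrogenase low. Many glycolytic genes are targets of the hypoxia-inducible factor HIF-1, and macrophages and dividing cells are known for high glycolytic expression. The tissue was islet by its beta cell markers (Ins1, Ins2, Iapp, Slc2a2 and others). Their sum over 10 genes ranged from 30089 to 308641 CPM in the 33 libraries. CPM, counts divided by library size after scaling by trimmed mean of M values, is not a direct share of a library's counts. In whole islets, fewer cells of a type and less RNA per cell cannot be told apart.

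Several libraries stood apart. The sum of 8 enterocyte markers (genes of the intestinal lining) was 15968 and 9199 CPM in STZ SD replicates 4 and 1, 5608 CPM in CTRL replicate 2, and 3758, 2390 and 1452 CPM in DT 5 DPA replicates 2, 1 and 4. It was 3316 CPM in DT 30 DPA replicate 2 and 2139 CPM in DT HFD replicate 1, and between 50.6 and 262 CPM in the other 25 libraries. DT 30 DPA replicate 2 also held Th and Dbh, enzymes of catecholamine synthesis looked at after its values were seen, at 382.5 and 858.4 CPM, against 12.1 to 51.1 CPM and 1.68 to 2.71 CPM in the other libraries of its group. Acinar markers summed to 617814 CPM in STZ HFD replicate 4. They also passed 100000 CPM in STZ SD replicates 2 and 3, CTRL SD replicate 3 and DT SD replicates 3 and 4. Values without libraries of high enterocyte or acinar markers are given where they change a call, and where they turn most members after STZ on the standard diet.

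In the order of the pathway, Hk2 phosphorylates glucose and lies at chr6:82725025-82774454 on the minus strand (GRCm38, the build called mm10). Gpi1, which interconverts glucose and fructose phosphates, lies at chr7:34201330-34230336 (minus). Pfkl and Pfkp, the liver and platelet subunits of phosphofructokinase, lie at chr10:77986947-78010083 and chr13:6579768-6648777 (both minus). Aldoa, the aldolase that splits fructose bisphosphate, lies at chr7:126795234-126800751, and Tpi1, which interconverts the resulting triose phosphates, at chr6:124810586-124814296 (both minus). Pgk1, phosphoglycerate kinase and the first step that yields ATP, lies at chrX:106187100-106203699 (plus). Pgam1 moves the phosphate of phosphoglycerate (chr19:41911923-41918660, plus), and Eno1 turns the product into phosphoenolpyruvate (chr4:150236721-150248879, plus). Pkm, pyruvate kinase of the M type, makes pyruvate (chr9:59656368-59679375, plus).

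The 4 genes that passed a test after DT were Hk2, Pgam1, Pfkl and Eno1, and the 250 bases upstream of their RefSeq starts (GRCm38.p6) are shown to compare what their promoters hold, with Pgk1 beside them as a classical hypoxia target. Capitals mark ACGTG or its complement CACGT, one form of the core of the HIF binding element, which also lies within the E-box CACGTG. The windows are Hk2 chr6:82774455-82774704 (minus), Pgam1 chr19:41911621-41911870 (plus), Pfkl chr10:78009808-78010057 (minus), the first of 3 starts of Eno1 at chr4:150236458-150236707 (plus) and Pgk1 chrX:106186850-106187099 (plus), each read 5′ to 3′ on the gene's strand.
Hk2: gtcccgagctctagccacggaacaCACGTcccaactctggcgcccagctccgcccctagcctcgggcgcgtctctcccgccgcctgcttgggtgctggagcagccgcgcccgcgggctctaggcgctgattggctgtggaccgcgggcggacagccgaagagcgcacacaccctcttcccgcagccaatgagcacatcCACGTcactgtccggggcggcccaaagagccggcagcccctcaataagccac
Pgam1: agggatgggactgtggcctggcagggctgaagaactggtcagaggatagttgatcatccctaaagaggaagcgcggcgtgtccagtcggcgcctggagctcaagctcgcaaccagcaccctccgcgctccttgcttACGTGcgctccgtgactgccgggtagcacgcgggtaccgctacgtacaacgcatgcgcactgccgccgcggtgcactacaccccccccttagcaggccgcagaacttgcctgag
Pfkl: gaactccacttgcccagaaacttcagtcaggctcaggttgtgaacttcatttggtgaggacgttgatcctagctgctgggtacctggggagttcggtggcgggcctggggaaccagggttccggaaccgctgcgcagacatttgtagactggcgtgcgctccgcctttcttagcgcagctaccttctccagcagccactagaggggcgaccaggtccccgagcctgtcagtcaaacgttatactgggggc
Eno1: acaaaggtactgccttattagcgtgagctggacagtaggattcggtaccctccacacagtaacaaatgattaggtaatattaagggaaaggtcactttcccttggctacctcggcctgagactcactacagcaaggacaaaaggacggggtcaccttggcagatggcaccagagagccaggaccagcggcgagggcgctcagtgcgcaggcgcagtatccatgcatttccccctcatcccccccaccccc
Pgk1: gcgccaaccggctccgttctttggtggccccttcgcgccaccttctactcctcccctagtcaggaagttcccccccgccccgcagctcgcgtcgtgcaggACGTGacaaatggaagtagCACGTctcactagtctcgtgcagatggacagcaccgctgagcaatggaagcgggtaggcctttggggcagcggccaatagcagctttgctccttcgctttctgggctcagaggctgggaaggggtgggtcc
The Hk2 window held the core at -226 and -52 from the start, the Pgk1 window at -150 and -131, and the Pgam1 window once, at -114. The Pfkl and Eno1 windows held none. The other form of the core, GCGTG, not in capitals, occurred on either strand in the Pfkl and Eno1 windows once each, in the Pgam1 window at 2 places and in neither the Hk2 nor the Pgk1 window, and 28.16% of all promoters held it. Across the members, 5 of 10 genes, or 6 of their 15 promoters, held ACGTG on either strand, against 18.49% of 27025 genes and 16.57% of 32851 promoters. A match describes the letters only, and the genes with and without ACGTG both include members that changed.

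The members differed widely in level. On the deposited TPM scale, which is per transcript length and so allows genes to be compared, Pkm was highest in CTRL SD islets at 248 ± 70.8 TPM (SD, n = 3, as for the values that follow). Aldoa averaged 121 ± 33.2 TPM and Pgam1 116 ± 23.5 TPM, an order that did not exceed their spread. Pgk1, Tpi1 and Eno1 came next at 65.9 ± 15.4, 61.2 ± 12.8 and 46.4 ± 11.7 TPM, with overlapping libraries. Gpi1 averaged 30.3 ± 5.44 TPM, and its range overlapped that of Eno1. The phosphofructokinase subunits were lower, Pfkl at 16.5 ± 3.52 TPM and Pfkp at 7.81 ± 1.00 TPM, and their libraries did not overlap. Hk2 was lowest at 1.33 ± 0.27 TPM. Enzymes late in the pathway were thus more abundant per length than those of the entry and commitment steps, and the median over all 33 libraries gave the same order, from 287 TPM for Pkm to 1.63 TPM for Hk2.

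At 5 days after DT, Hk2, Pfkl and Pgam1 were higher than in CTRL. The 10 members summed to 2488 ± 486 CPM in DT 5 DPA islets (SD, n = 4) and 1497 ± 373 CPM in CTRL islets (SD, n = 3). These 3 genes rose by edgeR's quasi-likelihood test with Benjamini-Hochberg adjustment over all tested genes (adjusted p below 0.05), and no member fell. That is 3 of 10, where 5.39% of all tested genes passed, 669 higher and 280 lower. The fitted log2 fold change was above 0 for all 10, with a median of 0.76 beside -0.05 over all tested genes, and 6 of 10 had no overlap between the groups, as had 15.4% of all genes.

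Hk2, the high-affinity hexokinase of muscle, fat and dividing cells, showed the largest difference among the members. It stood at 48.0, 32.3, 21.2 and 25.0 CPM in DT 5 DPA libraries, against 9.55, 9.89 and 3.56 CPM in CTRL libraries. Every DT 5 DPA library was above every CTRL library, by a wide gap. The log2 fold change was 2.04 ± 0.47 (SE), or 4.12-fold, with an adjusted p of 0.00758 in edgeR's test. The call was lost without CTRL replicate 3 (log2 fold change 1.70, edgeR adjusted p = 0.0595) and with only the compared groups in the fit (adjusted p = 0.0776), within a range of 0.000197 to 0.212 over 17 alternatives.

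Gpi1, the isomerase that follows, stood at 287, 243, 167 and 179.9 CPM in DT 5 DPA libraries, against 166, 206 and 106 CPM in CTRL libraries. The groups overlapped through CTRL replicate 2, and the log2 fold change of 0.46 ± 0.32 did not pass (edgeR adjusted p = 0.465).

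At the commitment step, Pfkl stood at 73.2, 56.9, 59.2 and 50.5 CPM in DT 5 DPA libraries, against 42.6, 46.4 and 34.0 CPM in CTRL libraries. All 4 DT 5 DPA libraries were higher than the CTRL libraries, though the lowest lay close to the highest CTRL library. Pfkl rose 1.46-fold, a log2 fold change of 0.55 ± 0.16 with an edgeR adjusted p of 0.0441. This call sat at the threshold. Leaving out DT 5 DPA replicate 1, 2 or 3 brought the edgeR adjusted p to 0.163, 0.0619 or 0.0718, and leaving out the first or the third CTRL library to 0.0998 or 0.203. It ranged from 0.0105 to 0.238 over 17 alternatives. Its partner subunit Pfkp stood at 108, 111, 71.1 and 75.0 CPM in DT 5 DPA libraries, against 61.0, 91.6 and 37.5 CPM in CTRL libraries, which overlapped (log2 fold change 0.53 ± 0.37, edgeR adjusted p = 0.470).

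Among the enzymes of the triose steps, Aldoa stood at 484, 418, 362 and 333 CPM in DT 5 DPA libraries, against 279, 271 and 245 CPM in CTRL libraries. The groups did not overlap, yet the log2 fold change of 0.59 ± 0.21 did not pass (edgeR adjusted p = 0.0964). Tpi1 stood at 252, 264, 145 and 165 CPM in DT 5 DPA libraries, against 103, 181 and 94.0 CPM in CTRL libraries, with overlap through CTRL replicate 2 (0.71 ± 0.38, edgeR adjusted p = 0.316). The kinase Pgk1 stood at 262, 198, 148 and 184 CPM in DT 5 DPA libraries, against 98.2, 154 and 62.3 CPM in CTRL libraries. Here too CTRL replicate 2, the CTRL library with the enterocyte markers, reached into the DT 5 DPA range (0.92 ± 0.35, edgeR adjusted p = 0.130).

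Pgam1, the mutase, gave the steadiest increase. It stood at 223, 212, 176 and 179.8 CPM in DT 5 DPA libraries, against 115, 115 and 109 CPM in CTRL libraries. The CTRL libraries lay close together, and all DT 5 DPA libraries were well above them. Pgam1 rose 1.75-fold, a log2 fold change of 0.80 ± 0.19 with an edgeR adjusted p of 0.0106, and the call held in edgeR's test whichever single library was left out, with an adjusted p of at most 0.0487.

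Of the last 2 enzymes, Eno1 stood at 489, 436, 344 and 341 CPM in DT 5 DPA libraries, against 222, 333 and 126 CPM in CTRL libraries. The groups were apart by a narrow margin at CTRL replicate 2, and the log2 fold change of 0.83 ± 0.37 did not pass (edgeR adjusted p = 0.207). Pkm stood at 813, 781, 545 and 588 CPM in DT 5 DPA libraries, against 361, 480.0 and 326 CPM in CTRL libraries. All DT 5 DPA libraries were higher, and the log2 fold change was 0.81 ± 0.29 (edgeR adjusted p = 0.112). Without CTRL replicate 2 alone, 4 members were called, Pgk1 being added (log2 fold change 1.30), and without CTRL replicate 3 a single member, Pgam1, was. The share of all genes called in either fit is not given here.

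Markers of other cells moved with this comparison. Of 9 macrophage markers 8 rose and none fell, their sum being 5262 to 7766 CPM in DT 5 DPA libraries and 741 to 2424 CPM in CTRL libraries. The macrophage gene Adgre1 stood at 235, 184, 296 and 193 CPM in DT 5 DPA libraries, against 24.0, 17.4 and 14.4 CPM in CTRL libraries. Of 7 mesenchymal markers 4 rose, their sum being 3084 to 4272 CPM in DT 5 DPA libraries and 714 to 1249 CPM in CTRL libraries. No beta cell marker of 10 was called (median log2 fold change -0.31). Their part in the differences of the glycolytic genes was not tested. Of the enterocyte markers, no gene of 8 was called and their median log2 fold change was -0.02, though 3 of 4 DT 5 DPA libraries and 1 of 3 CTRL libraries carried them. In DT 5 DPA replicate 3 the 8 markers summed to 110.4 CPM. Their part was not tested. With the libraries over 500 CPM of these markers or 100000 CPM of acinar markers left out, 1 DT 5 DPA library remained, assumed to vary like the other groups. All 10 fold changes then stayed above 0 (log2 0.28 to 1.67), and no member was called.

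At 30 days after DT, no member passed edgeR's test against CTRL, and DESeq2 called none either. Of all tested genes, 0.233% passed. At an unadjusted p below 0.05 were 2 of 10 members and 25.3% of all genes. The members summed to 1757 ± 672 CPM in DT 30 DPA islets (SD, n = 4) and 1497 ± 373 CPM in CTRL islets (SD, n = 3). The fitted fold change was above 0 for 6 of 10 members, with a median log2 of 0.17. Single libraries moved this balance both ways, to 3 of 10 without DT 30 DPA replicate 2 (median -0.31), 4 of 10 without CTRL replicate 3 (-0.04) and 9 of 10 without CTRL replicate 2 (0.47). Hk2, highest of the members at 5 days by fold, stood at 5.55, 3.51, 5.62 and 3.35 CPM in DT 30 DPA libraries, within or below the CTRL libraries (log2 fold change -0.77). Pgam1 alone had no overlap, 1 of 10 beside 12.4% of all genes, at 128, 215, 131 and 147 CPM in DT 30 DPA libraries against 115, 115 and 109 CPM in CTRL libraries (log2 fold change 0.45, edgeR adjusted p = 0.137). The comparisons of both times with CTRL share the 3 CTRL libraries.

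Set directly against each other, the 30-day libraries were lower than the 5-day libraries in Hk2, Pfkl and Eno1. All 10 members had fitted fold changes below 0 (median log2 -0.53, beside 0.02 over all tested genes), and 3 of 10 fell. The share of all tested genes called in this comparison was 30.5% in both directions together, 2914 higher and 2457 lower of 17616. The count of 3 of 10 is close to that joint share, and the share lower alone is smaller. Hk2 fell 7.01-fold, at a log2 fold change of -2.81 ± 0.44 (edgeR adjusted p = 4.53e-05), and kept its call in all 18 alternatives. The DT 30 DPA libraries, at 3.35 to 5.62 CPM, lay far below the DT 5 DPA libraries, at 21.2 to 48.0 CPM.

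Pfkl stood at 33.7, 43.9, 35.1 and 48.9 CPM in DT 30 DPA libraries, against 73.2, 56.9, 59.2 and 50.5 CPM in DT 5 DPA libraries. The groups were apart by a small margin, at a log2 fold change of -0.57 ± 0.15 (edgeR adjusted p = 0.00567). The call held in 17 of 18 alternatives, and was lost without the libraries of high enterocyte or acinar markers (log2 fold change -0.60, edgeR adjusted p = 0.135), in a range of 0.000677 to 0.135. Eno1 stood at 157, 322, 158 and 156 CPM in DT 30 DPA libraries, against 489, 436, 344 and 341 CPM in DT 5 DPA libraries. Its groups did not overlap although DT 30 DPA replicate 2 came close (log2 fold change -1.02 ± 0.34, edgeR adjusted p = 0.0229). Its call was lost without DT 5 DPA replicate 1 (edgeR adjusted p = 0.0714) or DT 30 DPA replicate 1 (0.0567), 3 (0.0633) or 4 (0.0716), in a range of 0.000569 to 0.0716 over 18 alternatives.

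The count in this comparison depended on which libraries entered the fit. DT 30 DPA replicate 2, with its enterocyte markers and its Th and Dbh, was the highest of its group for 8 of the 10 members, all but Hk2 and Pfkl. Without it, all 10 fold changes remained below 0 (log2 -2.71 to -0.46), and 9 members fell, all but Pkm, where 24.4% of all tested genes were called and 11.9% were lower. With the libraries over 5000 CPM of enterocyte markers left out, none of which belongs to either group, 7 members fell, where 34.0% of all genes were called and 15.7% were lower. Tpi1 shows the pattern, at 94.1, 244, 103 and 102 CPM in DT 30 DPA libraries against 252, 264, 145 and 165 CPM in DT 5 DPA libraries. The macrophage markers (8 of 9), mesenchymal markers (7 of 7) and cell cycle markers (6 of 8) also fell between 5 and 30 days, while 9 of 10 beta cell markers rose. Their part in the lower glycolytic levels was not tested.

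**Figure D1:**
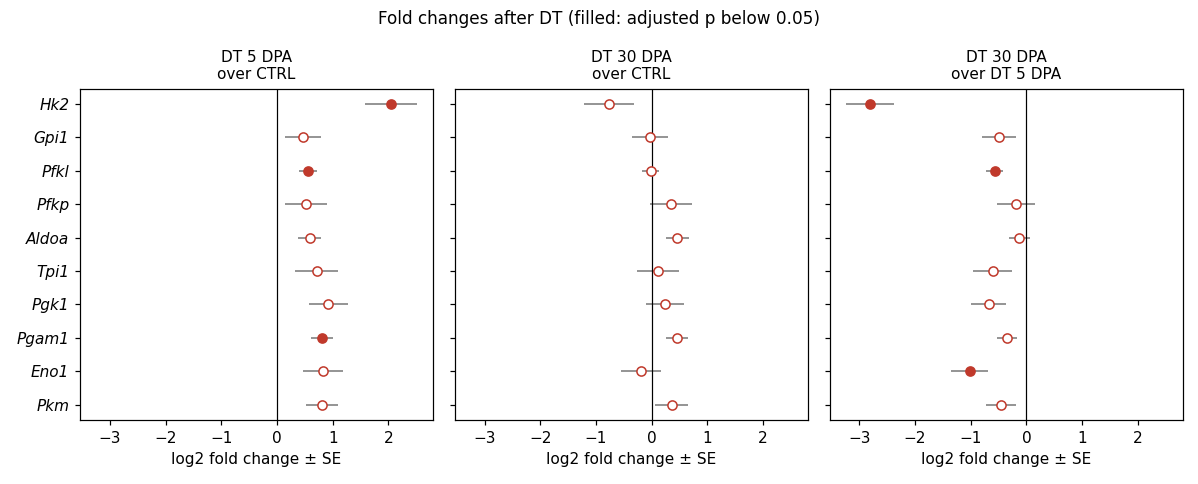
Log2 fold change with its standard error for the 10 genes in DT 5 DPA over CTRL, DT 30 DPA over CTRL, and DT 30 DPA over DT 5 DPA, from edgeR (filled points have an adjusted p below 0.05). Hk2 lies farthest from 0 at 2.04 and -2.81 in the first and last panels, and no point is filled at 30 days over CTRL.

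Isoform families show which form carried a step, as shares of family TPM. Values are medians over the libraries of a group, with the lowest and highest library in brackets. Among the phosphofructokinases, Pfkl held 30.7% (19.5% to 35.3%) of the TPM in DT 30 DPA islets, 43.6% (39.8% to 48.5%) in DT 5 DPA islets and 37.7% (28.6% to 40.6%) in CTRL islets. The muscle form Pfkm ran the other way, with 48.3% in DT 30 DPA islets and 25.8% in DT 5 DPA islets. Eno1 held 67.9% (63.5% to 72.6%) of enolase TPM in DT 30 DPA islets, 87.8% (83.8% to 91.3%) in DT 5 DPA islets and 81.1% (60.5% to 81.2%) in CTRL islets. Neuroendocrine Eno2 held 18.1% in DT 30 DPA islets and 4.87% in DT 5 DPA islets. Shares sum within a family, so a larger share of one form entails a smaller share of the others. The 3 CTRL libraries spanned most of the distance between the 30-day and the 5-day shares of Eno1.

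**Figure D2:**
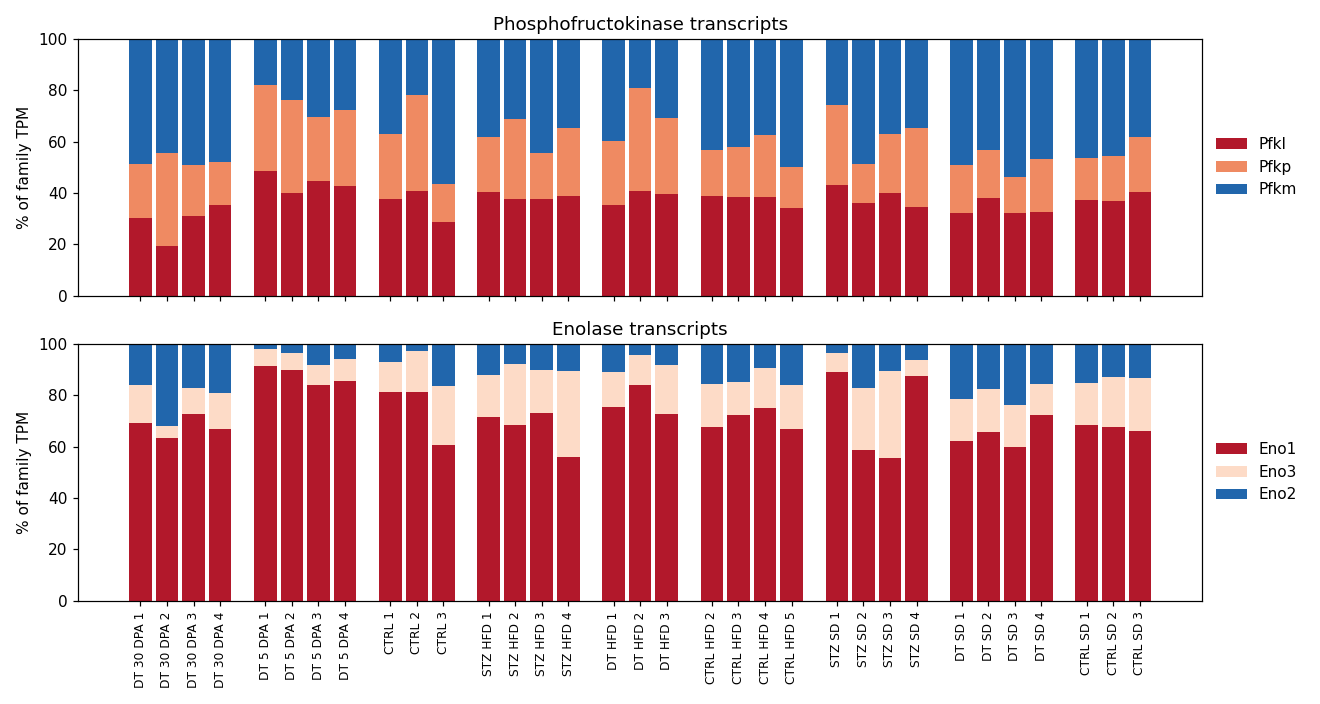
Stacked bars give each isoform's percentage of its family's TPM in each of the 33 libraries, for phosphofructokinases and enolases. In DT 30 DPA libraries Pfkl holds a median of 30.7% and Eno1 67.9%, against 43.6% and 87.8% in DT 5 DPA libraries.

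The rest of the pathway, from lists drawn up with earlier results of these data known, gave few calls at 5 days against CTRL. Of 13 other glycolytic enzymes and isoforms 1 rose and none fell. It was Hk3, the hexokinase of myeloid cells, at 90.8, 80.7, 38.1 and 43.9 CPM in DT 5 DPA libraries against 4.92, 6.65 and 3.19 CPM in CTRL libraries (log2 fold change 3.68 ± 0.55, edgeR adjusted p = 9.53e-05). Of 18 genes of glucose and lactate transport and of lactate and pyruvate enzymes, 1 rose, the lactate exporter Slc16a3. It stood at 61.8, 36.4, 26.0 and 22.1 CPM in DT 5 DPA libraries, against 2.43, 7.49 and 2.40 CPM in CTRL libraries (log2 fold change 3.15 ± 0.89, edgeR adjusted p = 0.0347). Of 7 genes of the pentose phosphate pathway, which branches off after the hexokinase step, 1 rose, G6pdx (log2 1.01 ± 0.25, edgeR adjusted p = 0.0125). None of 11 genes controlling glycolytic flux and gluconeogenesis passed. Of 12 hypoxia-response genes outside glycolysis, P4ha1 rose (log2 1.00 ± 0.22, edgeR adjusted p = 0.00548).

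Between 30 and 5 days, 4 of 7 pentose phosphate genes fell and none rose, namely G6pdx (log2 fold change -1.27), Pgd (-1.48), Tkt (-0.81) and Taldo1 (-0.84). Of the 13 other glycolytic genes 4 rose, among them Eno2 (1.69), Pfkm (1.04) and Aldoc (0.92), and Hk3 fell (-4.06). In the transport and lactate list 2 rose and 4 fell of 18. The fallen genes included Slc16a3 (-3.15), the glucose transporter Slc2a1 (-0.92) and Ldha (-1.70), which makes lactate. Slc2a2, the beta cell glucose transporter, rose (1.26). Of the 11 flux genes 4 rose and 2 fell, and the fallen ones were Pfkfb3 (-1.72) and Pfkfb4 (-1.16), which make and break the activator of phosphofructokinase. Of the 12 hypoxia genes 4 fell, among them Egln3 (-2.31) and Hif1a (-0.63), and Vegfa rose (1.09). All these calls are by edgeR at an adjusted p below 0.05, in a comparison that called 30.5% of all genes.

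At 10 weeks on the standard diet, no member passed after DT. None of 10 passed edgeR's test in DT SD against CTRL SD, none at an unadjusted p below 0.05 (7.95% of all genes), and none in DESeq2, while 0.0341% of all tested genes passed. The members summed to 1316 ± 36.2 CPM in DT SD islets (SD, n = 4) and 1282 ± 68.1 CPM in CTRL SD islets (SD, n = 3). Log2 fold changes ran from -0.40 for Hk2 to 0.12, with 5 of 10 above 0. Hk2 stood at 4.10, 3.16, 2.36 and 4.73 CPM in DT SD libraries, against 3.73, 5.69 and 4.83 CPM in CTRL SD libraries, which overlapped. Pfkl alone had no overlap, 1 of 10 beside 17% of all genes, at 36.9, 40.9, 36.3 and 34.4 CPM in DT SD libraries against 43.5, 42.2 and 41.8 CPM in CTRL SD libraries (log2 fold change -0.20).

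After STZ on the standard diet, the direction of every member rested on 2 libraries. None of 10 passed edgeR's test in STZ SD against CTRL SD, with 3 at an unadjusted p below 0.05 (11.3% of all genes) and none in DESeq2, and 0.00568% of all tested genes passed. The members summed to 1855 ± 968 CPM in STZ SD islets (SD, n = 4) and 1282 ± 68.1 CPM in CTRL SD islets (SD, n = 3). All 10 log2 fold changes were above 0, from 0.04 for Pgam1 to 1.16 for Tpi1 (edgeR adjusted p = 0.175), with a median of 0.55 beside 0.02 over all tested genes.

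Tpi1 stood at 229.7, 78.2, 68.6 and 333 CPM in STZ SD libraries, against 81.7, 76.8 and 79.7 CPM in CTRL SD libraries. STZ SD replicates 1 and 4 were the high ones, and the other two lay close to or below CTRL SD. Eno1 stood at 404, 116, 109 and 419.8 CPM in STZ SD libraries, against 152, 150.3 and 134 CPM in CTRL SD libraries, and Gpi1 at 250.3, 120.2, 109.9 and 397 CPM in STZ SD libraries, against 113, 117 and 116 CPM in CTRL SD libraries. The same replicates were high for both. They were the 2 libraries with the most enterocyte marker RNA of all 33. With every library over 5000 CPM of enterocyte markers left out, all 10 log2 fold changes were below 0 (-0.60 to -0.0025, median -0.21), and none was called. That alternative was chosen after seeing the data. The STZ SD libraries it kept, replicates 2 and 3, held 102083 and 171256 CPM of acinar markers. CTRL SD replicate 3, also kept, held 152770 CPM. No STZ SD library was thus free of high enterocyte or acinar markers.

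Comparisons that reuse the STZ SD libraries turned in the same way, again with only the acinar-rich replicates 2 and 3 of STZ SD kept. STZ SD against DT SD gave 9 of 10 fold changes above 0 and no call by edgeR (3 at an unadjusted p below 0.05, beside 19.4% of all genes), where 2.56% of all genes passed. Tpi1 was nearest, at a log2 fold change of 1.04 (edgeR adjusted p = 0.0921), and DESeq2 called it (1.05, adjusted p = 0.0407). Without the libraries over 5000 CPM of enterocyte markers, 1 of 10 was above 0 (log2 -0.49 to 0.01). Pathway genes called here included the lactate exporter Slc16a3 and Ldha (log2 fold change 2.15), both higher in STZ SD islets. STZ HFD against STZ SD gave 1 of 10 above 0 and no call by edgeR (4 at an unadjusted p below 0.05, beside 13.0% of all genes), where 0.136% of all genes passed, and DESeq2 called Pkm (log2 fold change -0.88, adjusted p = 0.0351). Without those libraries all 10 were above 0 (0.02 to 0.96).

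**Figure D3:**
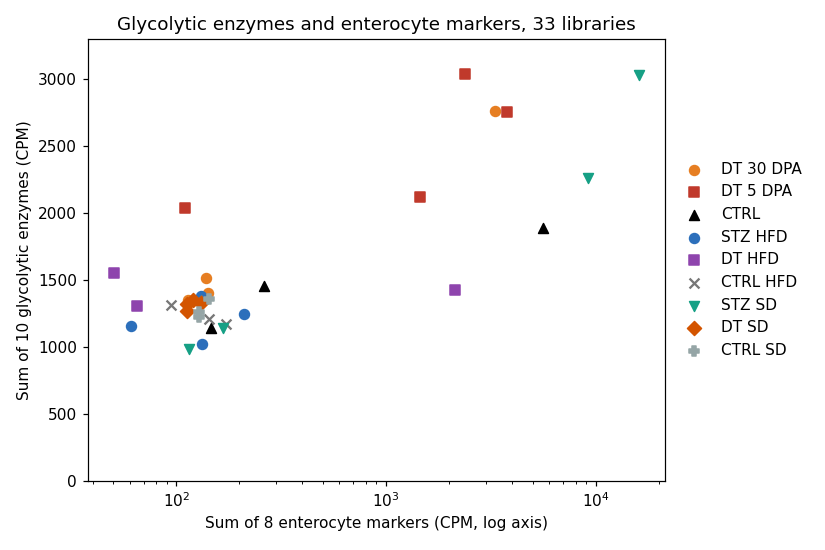
The sum of the 10 members (CPM) is plotted against the sum of 8 enterocyte markers (CPM, log axis) for the 33 libraries, with a symbol for each group. STZ SD replicates 4 and 1 lie far right, at 15968 and 9199 CPM of enterocyte markers, while 25 libraries lie at or below 262 CPM.

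On the high-fat diet no member passed against CTRL HFD after either toxin. STZ HFD against CTRL HFD gave log2 fold changes from -0.30 for Pkm to 0.15, none at an unadjusted p below 0.05 in edgeR (13.7% of all genes) and none called by DESeq2, where 0.471% of all genes passed. The sums were 1201 ± 152 CPM in STZ HFD islets and 1258 ± 85.1 CPM in CTRL HFD islets (SD, n = 4 each). DT HFD against CTRL HFD gave 8 of 10 above 0, with 1 at an unadjusted p below 0.05 (11.9% of all genes) and none called by edgeR or DESeq2, where 0.00568% of all genes passed. Gpi1, Pfkp, Pgk1 and Eno1 were higher in every DT HFD library than in every CTRL HFD library, that is 4 of 10 members beside 11.5% of all genes without overlap. Pfkp stood at 55.3, 94.0 and 63.0 CPM in DT HFD libraries, against 45.7, 47.1, 50.4 and 41.3 CPM in CTRL HFD libraries (log2 fold change 0.62). Hk2 stood at 5.00, 21.9 and 12.4 CPM in DT HFD libraries, against 4.75, 6.70, 8.24 and 3.55 CPM in CTRL HFD libraries, where the lowest DT HFD library overlapped (1.17 ± 0.44, edgeR adjusted p = 0.351).

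In control islets no member differed detectably by diet. CTRL HFD against CTRL SD called 0% of all genes in edgeR, and no member passed there, at an unadjusted p below 0.05 or in DESeq2. Log2 fold changes ran from -0.15 for Aldoa to 0.30 for Hk2. STZ HFD against DT HFD called no member (1 of 10 at an unadjusted p below 0.05 beside 15.6% of all genes, none in DESeq2), where 0.341% of all genes passed, and Eno1 alone had no overlap (1 of 10, beside 11.1% of all genes), at 156, 159, 177 and 114 CPM in STZ HFD libraries against 195, 224 and 192 CPM in DT HFD libraries.

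Among DT islets at 10 weeks, Hk2 was higher on the high-fat diet. In DT HFD against DT SD, 1 of 10 members rose and none fell, where 23.5% of all tested genes were called. Hk2 stood at 5.00, 21.9 and 12.4 CPM in DT HFD libraries, against 4.10, 3.16, 2.36 and 4.73 CPM in DT SD libraries. Every DT HFD library was higher, though replicate 1 only just so. Hk2 rose 3.64-fold, a log2 fold change of 1.86 ± 0.45 (edgeR adjusted p = 0.00704). Without DT HFD replicate 2 the call was lost (1.28, edgeR adjusted p = 0.127, the highest of a range of 0.000867 to 0.127 over 17 alternatives).

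Gpi1, Pfkp, Pgk1 and Eno1 were likewise higher in all DT HFD libraries than in all DT SD libraries, and Aldoa lower in all, without passing. With Hk2 this makes 6 of 10 without overlap, beside 39.1% of all genes. Eno1 stood at 195, 224 and 192 CPM in DT HFD libraries, against 136, 148, 115 and 153 CPM in DT SD libraries (log2 fold change 0.56, edgeR adjusted p = 0.245). Aldoa stood at 243, 227 and 229 CPM in DT HFD libraries, against 265, 288, 309.7 and 283 CPM in DT SD libraries (-0.30, edgeR adjusted p = 0.288). The members thus did not move as a block, and their median of 0.24 stood beside -0.01 over all genes.

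Cell cycle markers moved with Hk2 here. All 8 rose, their sum being 282.5, 1068 and 515 CPM in DT HFD libraries and 79.8 to 170 CPM in DT SD libraries, in the same order over the DT HFD replicates as Hk2. The proliferation marker Mki67 stood at 74.4, 381 and 178 CPM in DT HFD libraries, against 20.7, 39.5, 6.82 and 33.6 CPM in DT SD libraries. Immune cell markers differed as well. Lymphocyte markers summed to 1060 to 1806 CPM in DT HFD libraries and 65.9 to 649 CPM in DT SD libraries. Macrophage markers summed to 1044 to 2285 CPM in DT HFD libraries and 317 to 1053 CPM in DT SD libraries, which overlapped narrowly. Beta cell markers fell (7 of 10, median log2 fold change -1.27). The part of any of these lists in the Hk2 difference was not tested. Enterocyte markers rose (4 of 8) through DT HFD replicate 1, the library lowest in Hk2 of its group. In the pathway lists no other glycolytic enzyme of 13 and no pentose phosphate gene of 7 was called. Slc2a1, the widespread glucose transporter, rose (0.67), and Slc2a2 (-1.28), Pcx (-1.20) and G6pc2 (-2.04), genes of beta cell glucose handling, fell.

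Whether diet changed the response to a toxin was asked by interaction terms, and no member passed. For DT, Hk2 had the largest term, at log2 1.57 ± 0.63 (unadjusted p = 0.0201, edgeR adjusted p = 0.283), 1 of 10 members at an unadjusted p below 0.05 beside 15.6% of all genes. For STZ all 10 terms were below 0 (median log2 -0.45) with 2 at an unadjusted p below 0.05 (6.60% of all genes). Without the libraries over 5000 CPM of enterocyte markers, all 10 of these terms were above 0. Both terms called 0% of all genes in edgeR, and DESeq2 called no member.

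**Figure D4:**
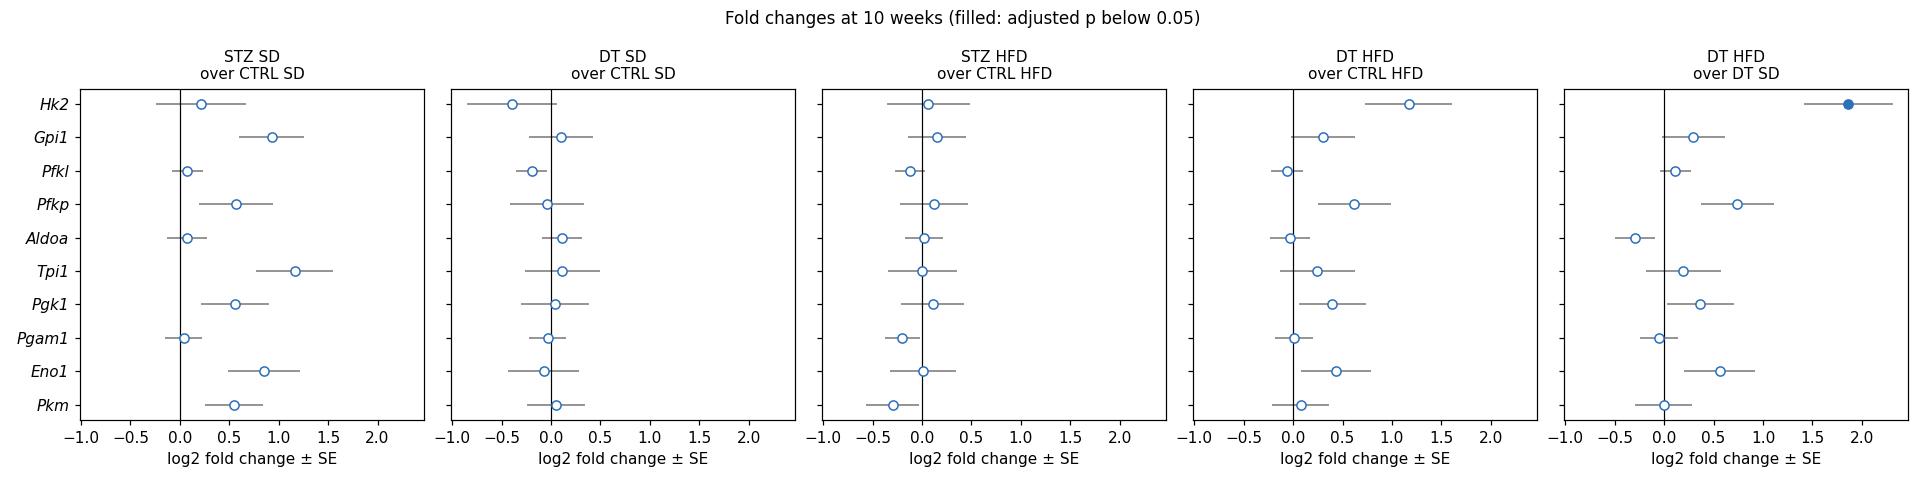
Log2 fold change with its standard error for the 10 genes in 5 comparisons at 10 weeks, from edgeR (filled points have an adjusted p below 0.05). Hk2 in DT HFD over DT SD, at 1.86, is the only filled point, and all 10 points of the STZ SD panel lie to the right of 0. The errors come from the shared fit over 33 libraries and do not show the spread within STZ SD. For Tpi1 the error is 0.39 in the STZ SD panel and 0.38 in the DT SD panel.

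Across the 33 libraries every pair of members correlated positively on the log2 CPM scale, from r = 0.28 (Hk2 with Aldoa) to 0.94 (Gpi1 with Tpi1), a description over libraries that share treatment groups and admixture. Without the DT 5 DPA libraries and those with enterocyte markers over 500 CPM, 24 libraries remained and the values of r spread out. Hk2, Gpi1, Pfkp, Pgk1 and Eno1 kept pairwise r of 0.69 to 0.93, and Aldoa, Pgam1 and Pkm 0.68 to 0.94. Between these sets the 15 values of r ran from -0.47 to 0.39. Pfkl and Tpi1 belong to neither set, and Tpi1 correlated with members of both (0.53 with Eno1, 0.68 with Pkm). The sets were drawn after seeing the values, and the first holds the 5 genes that were high in every DT HFD library against DT SD.

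The genes most like the mean of the 10 members over 33 libraries, among 10489 genes of sufficient level, were led by Gapdh (r = 0.94), the glycolytic dehydrogenase that is not a member. Pgd (0.92) and G6pdx (0.91), the oxidative enzymes of the pentose phosphate pathway, were also in the first 10, with Coro1c (0.93), Gnb1 (0.92), Cndp2 (0.91) and Lgals3 (0.90). In the 24 libraries G6pdx kept 0.85, Pgd 0.75 and Gapdh 0.74, and Lgals3 fell to 0.33. Hk1, the other high-affinity hexokinase, had 0.56. Gapdh stood at 77.8, 174, 76.3 and 71.4 CPM in DT 30 DPA libraries, 197, 233, 168 and 142 CPM in DT 5 DPA libraries and 84.4, 150.3 and 54.0 CPM in CTRL libraries. As for Tpi1 and Pgk1, DT 30 DPA replicate 2 and CTRL replicate 2 were the high libraries of their groups.

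Near-identical copies and overlapping genes limit some counts. Eno1b, a copy of Eno1, held 2495 counts in STZ SD replicate 4 and at most 62 in any other library. Pgk1-rs7, a copy of Pgk1, held up to 748 counts (DT 5 DPA replicate 1). Reads of those pairs may thus be split. With both copies summed into Eno1 and Pgk1, no member gained or lost a call in any comparison. Pitrm1 overlaps Pfkp on the other strand with a mean of 593.3 counts beside 899.0 for Pfkp, and since the strand setting of the counting is not given, their reads cannot be told apart with certainty. The partners overlapping Aldoa, Tpi1 and Gpi1 were far lower, at means of 116.1, 128.8 and 5.5 counts beside 4138.7, 1757.4 and 2271.3. Gm49759 overlaps Pkm on the same strand and was not analysed here, so reads of that pair could not be separated by strand.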

How the data were processed

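RNA from mouse islets (column extraction, stranded mRNA library kit, per the labels' protocols) was sequenced, and gene counts and TPM were deposited. The deposited counts are whole numbers per gene, unnormalized, and TPM values are the authors' per-length values. The submitters' processing notes name mm10. The aligner, counter, annotation and strand setting were not given in the sources used here. Groups came from the labels. One library, titled as a CTRL HFD replicate but with DT in its treatment label, was left out of all comparisons.

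Counts were fitted in edgeR 4.0.16 (R 4.3.3) by the robust quasi-likelihood F test, in 1 fit over 33 libraries with scaling by trimmed mean of M values. Genes passed filterByExpr with a minimum count of 10 and minimum total of 15, leaving 17616. There were 14 contrasts, with Benjamini-Hochberg adjustment over all tested genes and calls below 0.05. Log2 fold changes carry the model's SE. CPM, counts divided by scaled library size, is computed from counts. Differences of TPM were not tested. Alternatives were DESeq2 1.42.0, other scaling and filters, fits of the compared groups alone, a replicate block, each library left out, and libraries with enterocyte or acinar markers left out, of which the limit of 5000 CPM and the summing of near-identical copies were added after seeing the data. The fit and its calls were tested on simulated counts. These gave all genes the same spread and held no library with other tissue, so they cannot say how reliable the calls are in these data.

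The 10 members and the gene lists were chosen with earlier results of these data known. Named pathway genes are those with the smallest adjusted p in each list, up to 3 for each comparison, beside genes named to complete a count. Likeness is Pearson's r with the mean of the members' log2 CPM, each member first standardized (z-score) over the 33 libraries. It was taken over genes averaging 3 or more in log2 CPM. Positions come from GENCODE M21 and promoters from RefSeq, matched by symbol for all 10 members.

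Counts per library ranged from 28 to 732 for Hk2 and 1501 to 14947 for Pkm, so counting error is largest for Hk2. No libraries of a group were alike enough to be duplicates (smallest chi-square per degree of freedom 25.9 over 45 pairs).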

Additional observations from a re-analysis of the deposited data

Results flagged for a closer look

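In DT 30 DPA islets, replicate 2 lay far above the other 3 libraries for 6 members. It held 274 CPM of Gpi1, 173 CPM of Pfkp, 589.8 CPM of Aldoa, 244 CPM of Tpi1, 238 CPM of Pgk1 and 322 CPM of Eno1. Of 60 combinations of gene and group tested for such a library, 6 were marked, all in this library, where chance gives about 1 in 20. The 6 marked genes correlated pairwise across the libraries (r = 0.65 to 0.94). Their marks are thus not independent, and the count of 6 cannot be weighed against that rate. The share of all tested genes marked in this library is not given here. The 6 marks are therefore not by themselves a result about the members. Replicate 2 is the library with Th, Dbh and enterocyte markers above its group.

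The effect of DT against CTRL differed between 30 and 5 days for Hk2 (difference of log2 fold changes -2.81), Pfkl (-0.57) and Eno1 (-1.02), by edgeR's test of the difference, in which the shared CTRL libraries drop out.

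The library left out for its conflicting labels stood above the range of the 4 CTRL HFD libraries for 6 of 10 members, as it did for 27.6% of all tested genes. It held 10.6 CPM of Hk2, against 3.55 to 8.24 CPM in CTRL HFD libraries, and 69.4 CPM of Pfkp, against 41.3 to 50.4 CPM. It held 146 CPM of Gpi1 (CTRL HFD 113 to 134), 102 CPM of Tpi1 (74.7 to 89.7), 145 CPM of Pgk1 (74.8 to 98.1) and 225 CPM of Eno1 (133 to 166). Pfkl, Aldoa, Pgam1 and Pkm, at 42.0, 249, 123 and 386 CPM, were within that range.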

How the results depend on the processing

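Of 2530 alternatives to 140 member results, 2474 kept their direction, or stayed uncalled, and their side of the threshold, 19 lost a call, 37 gained one, and no called value changed sign. Most of these results were uncalled in the main fit, so the total says little about the calls. Among called results, Pfkl in DT 5 DPA against CTRL kept its call in 8 of 17 alternatives. Hk2 in DT 30 DPA against DT 5 DPA kept its call in 18 of 18. The cause was not tested for any change below. The counts that follow are given without the share of all tested genes called in each setting. That share can also change with the setting, as it did for DT 30 DPA against DT 5 DPA. A changed count is therefore not by itself a result about the members. For DT 5 DPA against CTRL, 3 members were called, and 7 with libraries over 5000 CPM of enterocyte markers left out, 5 in DESeq2, 2 without a filter, 1 with the compared groups alone, and 0 without all libraries of high enterocyte or acinar markers (1 DT 5 DPA library left). Leaving out single libraries gave 1 to 4. For DT 30 DPA against DT 5 DPA, 3 were called, 7 with the limit of 5000 CPM, 2 with the wider exclusion, and 2 to 9 with single libraries left out. DT HFD against DT SD called 1, and 3 with the compared groups alone or the wider exclusion (Hk2, Pfkp, Eno1), and 0 to 1 with single libraries left out. DT HFD against CTRL HFD called 0, and 1 with the wider exclusion (Pfkp, log2 0.82). STZ HFD against STZ SD and STZ SD against DT SD called 0 each, 1 each in DESeq2, and 0 to 2 and 0 to 3 with single libraries left out, as STZ SD against CTRL SD gave 0 to 2. The wider exclusion leaves no STZ SD library, so comparisons with STZ SD and the STZ interaction have no value there. In no comparison were all same-numbered pairs of libraries over 0.1 (37 pairs, correlation of deviations -0.18 to 0.65, 12 over 0.1). Some early pairs did share deviations. DT 5 DPA and CTRL gave 0.08, 0.40 and 0.65 for replicates 1, 2 and 3. With the replicate block, 2 members were called in DT 5 DPA against CTRL (Pfkl adjusted p = 0.0660), 3 between 30 and 5 days, 1 in DT HFD against DT SD and 0 elsewhere. Depth limits Hk2 most, at 28 counts in its lowest library.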
